A study of Mus musculus with 8 samples.

Results

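The Notch segmentation clock and the Mesp genes were followed in the posterior end of mouse embryos that lack Cdx2, a caudal-type homeobox factor needed for growth of the trunk and tail. The 10 genes chosen by name were the ligands Dll1 and Dll3, the receptor Notch1, the targets and modulators Hes5, Hes7, Lfng and Nrarp, and Mesp1, Mesp2 and Ripply2. Every non-control probe that the array files assign to one of these names was taken, which gave 12 probes of 9 genes out of 41174 probes on the array. No probe carried the name Ripply2, so that gene was not analysed here. Mesp1, Notch1 and Lfng had 2 probes each and the other 6 genes 1 each. Of the 12 probes, 11 passed the filter on dim probes, which kept 21907 probes in all. The exception was the second Lfng probe, which was well above background on at most 2 of 4 arrays in any pool.

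Null mutant embryos for Cdx2 were compared with wild type embryos, both of the strain C57Bl6J/CBA, at 4/5 somites and again at 7/8 somites. The piece of tissue lay between the boundary of the last somite and the base of the allantois, and RNA of 20 embryos made up each pool, with 1 pool for each genotype at each stage and thus 4 pools in all. Each stage had 4 arrays with 2 colours, on which null and wild type pools competed, with Cy3 on the null pool on arrays 1 and 3 and Cy5 on the null pool on arrays 2 and 4. Arrays 1 and 2 of each stage were on slide 1, and arrays 3 and 4, the technical repeat, on slide 2. Standard deviations over 4 arrays are therefore technical, and no comparison within a stage has a second pool. The sources used here do not say how the null allele was made.

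In the mouse embryo, somites are cut one after another from the presomitic mesoderm, in which Notch signalling between neighbouring cells cycles with each new segment. Ligand on one cell releases the intracellular domain of Notch1 in the next, which acts with the DNA-binding protein Rbpj on targets such as Hes7 and Lfng, whose products feed back on the cycle. At the front of that tissue Notch and the T-box factor Tbx6 turn on Mesp2, which places the next boundary, and Mesp1 is also a gene of the earliest mesoderm that leaves the primitive streak.

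In each channel of each array, 47.0% to 59.5% of probes exceeded the scanner's background limit. Within a stage, the correlation of log2 ratios across probes was 0.856 to 0.918 for 2 arrays of like dye order and 0.477 to 0.516 for 2 of opposite dye order. For arrays of different stages it was 0.498 to 0.591 and 0.235 to 0.307 (probes are not independent replicates). Cdx2 itself read between -1.61 and -1.10 on the log2 scale, null over wild type, on the 8 arrays. The sources used here do not say whether the null allele lacks the part of the gene that its probe matches.

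The windows at the starts of 4 of the genes are shown because these genes moved most or, for Hes7, drive the clock. They run from 250 bases before to 50 bases after the annotated start, are read along the strand of the gene, and come from RefSeq on build GRCm38.p6. Matches on either strand are in capitals for TGGGAA (the core bound by Rbpj), CACNAG (an N-box, bound by Hes proteins), TTTATNG (a Cdx site) and AGGTGT (a T-box element).
Mesp1, chr7:79793541-79793840, minus strand: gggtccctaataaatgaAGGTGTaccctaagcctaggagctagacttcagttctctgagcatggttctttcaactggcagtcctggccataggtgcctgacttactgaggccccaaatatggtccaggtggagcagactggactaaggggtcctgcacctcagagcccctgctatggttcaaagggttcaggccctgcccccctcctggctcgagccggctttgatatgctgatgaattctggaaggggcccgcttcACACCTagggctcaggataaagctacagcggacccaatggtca
Mesp2, chr7:79810477-79810776, plus strand: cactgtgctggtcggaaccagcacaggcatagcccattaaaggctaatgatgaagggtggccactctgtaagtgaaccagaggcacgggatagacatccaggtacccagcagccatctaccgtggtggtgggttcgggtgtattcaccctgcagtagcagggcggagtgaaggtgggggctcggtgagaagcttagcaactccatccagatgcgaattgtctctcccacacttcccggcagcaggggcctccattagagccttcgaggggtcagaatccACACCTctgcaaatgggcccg
Dll3, chr7:28301736-28302035, minus strand: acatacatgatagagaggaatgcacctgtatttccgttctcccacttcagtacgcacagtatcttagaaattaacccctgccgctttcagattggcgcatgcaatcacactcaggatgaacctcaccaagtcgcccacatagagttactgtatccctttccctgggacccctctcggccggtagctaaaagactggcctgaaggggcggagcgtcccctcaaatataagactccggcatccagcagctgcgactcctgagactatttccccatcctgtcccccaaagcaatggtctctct
Hes7, chr11:69120203-69120502, plus strand: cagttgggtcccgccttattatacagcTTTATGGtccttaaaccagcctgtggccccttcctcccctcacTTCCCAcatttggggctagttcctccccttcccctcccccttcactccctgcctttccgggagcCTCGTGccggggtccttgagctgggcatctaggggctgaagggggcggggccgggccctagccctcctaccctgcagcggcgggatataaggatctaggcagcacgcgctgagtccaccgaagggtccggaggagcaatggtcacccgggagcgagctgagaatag
Mesp1 and Mesp2 lie 17.1 kb apart, on opposite strands, with their starts toward each other. The Mesp1 window held the T-box element at bases -233 and 8 from the start, counted at the leftmost base of the match, and the Mesp2 window held it at base 30. No other window of the 10 genes held AGGTGT, which 13.7% of 32851 RefSeq windows hold. The Hes7 window held the Cdx letters at -223, the Rbpj core at -180 and an N-box at -116, and was the only window of the 10 genes with TTTATNG (10.9% of all windows). Hes5 and Lfng, whose windows are not shown, held the Rbpj core at 2 places each, against 25.6% of all windows with at least one. An N-box was found in 5 of the 11 windows (Dll1 has 2 starts) and in 42.5% of all windows. The Dll3 window held none of the 4 motifs. An E-box, CANNTG, is left in lower case because 72.3% of all windows hold one, as did 10 of the 11. No match in the 4 windows shown overlapped another of these motifs. A match in letters is not a bound site.

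The first question was which of these genes were higher or lower in null than in wild type over both stages. Mesp1 rose on both of its probes, Mesp2 rose less, and the ligand Dll3 fell. The other 6 genes did not pass the test, with Hes5, Hes7 and Lfng below 0 and Nrarp, Dll1 and Notch1 above 0. Every probe was tested with limma on 1 value per stage, and Benjamini-Hochberg adjustment ran over all 21907 probes, with a call at an adjusted p of at most 0.05. Standard errors (SE) of these means are from that fit, with n = 2 stages. Over all kept probes, 8.42% were called, 4.94% higher and 3.48% lower in null, and among the 11 kept probes of these genes 3 were called higher and 1 lower. In tissue RNA, fewer cells of a type and less RNA per cell cannot be told apart.

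**Figure D1:**
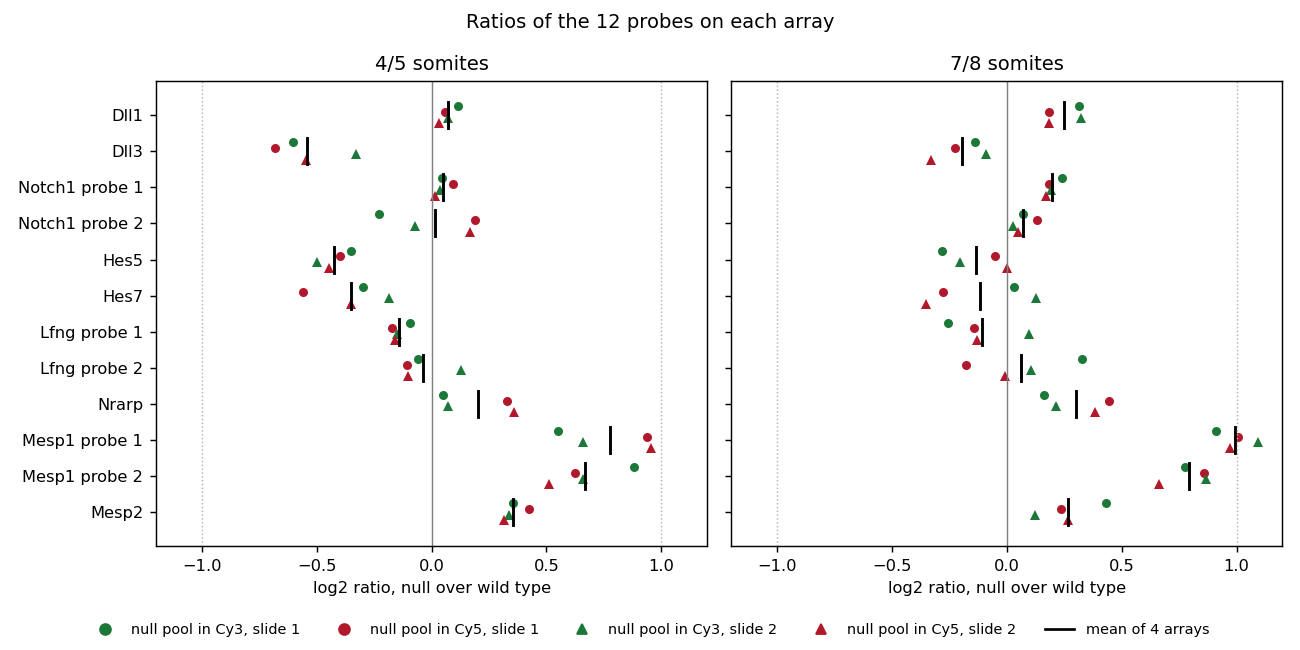
Log2 ratio of null over wild type (horizontal axis) for each of the 12 probes (rows) on each array at 4/5 somites (left) and 7/8 somites (right). Green marks have the null pool in Cy3 and red marks in Cy5, circles are slide 1 and triangles slide 2, black bars are means of 4 arrays, and dotted lines mark 2-fold. Both Mesp1 probes lie right of 0 on all 8 arrays, between 0.51 and 1.09, and Dll3 lies left of 0 on all 8.

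Dll3 encodes a Delta-like protein that, unlike Dll1, does not activate Notch on a neighbouring cell. Its log2 ratios on arrays 1 to 4 were -0.60, -0.68, -0.33 and -0.55 at 4/5 somites. They were -0.14, -0.23, -0.09 and -0.33 at 7/8 somites. All 8 arrays lay below 0, and the stages all but touched, since the highest array at 4/5 read -0.3303 and the lowest at 7/8 read -0.3297. The means were -0.54 ± 0.15 (SD of 4 arrays) at 4/5 and -0.20 ± 0.11 at 7/8 somites. Over both stages Dll3 fell by 0.37 on the log2 scale, 1.29-fold (SE 0.09, limma adjusted p = 0.0219). The call was lost in 11 of 20 alternative settings, with adjusted p up to 0.240, among them leaving out array 2 (adjusted p = 0.0953) or array 4 (0.0811) of 4/5 somites or array 2 (0.0975) or array 4 (0.113) of 7/8 somites, while the ratio stayed between -0.45 and -0.28. Its probe position on mm9, the build of the files, is chromosome 7, 29078763 to 29078822.

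Dll1 encodes the ligand that activates Notch1 in presomitic mesoderm, and its probe was printed in 10 spots per array. Its log2 ratios on arrays 1 to 4 were 0.11, 0.06, 0.07 and 0.03 at 4/5 somites and 0.31, 0.18, 0.32 and 0.18 at 7/8 somites. All 8 arrays were above 0 and the stages did not overlap. The mean over both stages was 0.16 (SE 0.09, limma adjusted p = 0.328). Single spots of the probe had standard deviations from 0.031 to 0.100 within an array. With median centring in place of loess the mean of Dll1 was 0.25, still not called (limma adjusted p = 0.203).

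The receptor Notch1 gave values near 0 on both probes. Probe 1, also printed in 10 spots, read from 0.02 to 0.09 at 4/5 somites and from 0.17 to 0.24 at 7/8 somites, with a mean of 0.12 (SE 0.09, limma adjusted p = 0.482). Probe 2, which lies next to it on chromosome 2, read from -0.23 to 0.19 at 4/5 and from 0.03 to 0.13 at 7/8 somites, with a mean of 0.04 (SE 0.08, limma adjusted p = 0.864). All 8 arrays of probe 1 were above 0, whereas probe 2 was below 0 on the 2 arrays at 4/5 somites with Cy3 on the null pool. The mean of probe 2 turned negative, -0.05, in 1 of 19 alternative settings.

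Hes5 and Hes7 encode repressors of the Hes family, Hes7 being the oscillator of the mouse clock and Hes5 a Notch target of presomitic mesoderm and of neural progenitors. Hes5 read -0.35, -0.40, -0.50 and -0.45 on arrays 1 to 4 at 4/5 somites. It read -0.28, -0.05, -0.21 and 0.00 at 7/8 somites. All arrays at 4/5 somites were thus below all arrays at 7/8 somites, where 1 of the 4 lay at 0. The means were -0.42 ± 0.06 and -0.13 ± 0.13 (SD of 4 arrays), and the mean over both stages was -0.28 (SE 0.09, limma adjusted p = 0.0760). Hes5 passed the limma test in 3 of 20 alternative settings, with the stricter filter (adjusted p = 0.0467), within slide 2 (0.0469) and without array 1 of 4/5 somites (0.0413), and its ratio ran from -0.35 to -0.19.

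Hes7 read -0.30, -0.56, -0.19 and -0.35 on arrays 1 to 4 at 4/5 somites. It read 0.03, -0.28, 0.13 and -0.35 at 7/8 somites. At 7/8 somites the sign followed the dye, with a mean of 0.08 with Cy3 on the null pool and -0.31 with Cy5, whereas all 4 arrays were below 0 at 4/5 somites. The mean over both stages was -0.23 (SE 0.09, limma adjusted p = 0.132). Over 20 alternative settings the ratio of Hes7 ran from -0.57 to -0.08. It passed the limma test in 2 of them, with the scanner's own log ratio (-0.57, adjusted p = 0.0150) and with the arrays that had Cy5 on the null pool alone (-0.38, adjusted p = 0.0321), and was -0.08 with the arrays that had Cy3 on it alone. The Hes7 probe lies on chromosome 11 at 68935657 to 68935716.

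Lfng encodes a glycosyltransferase that modifies Notch and cycles with the clock. Its kept probe read from -0.17 to -0.09 at 4/5 somites and from -0.26 to 0.10 at 7/8 somites, with a mean of -0.13 (SE 0.08, limma adjusted p = 0.449). It was below 0 on 7 of 8 arrays. With the scanner's own log ratio the mean of Lfng probe 1 was -0.23 (limma adjusted p = 0.334). The dim second probe ran from -0.11 to 0.13 at 4/5 and from -0.18 to 0.33 at 7/8 somites and was not tested.

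Nrarp encodes an ankyrin repeat protein that Notch induces and that dampens Notch signalling. Its log2 ratios on arrays 1 to 4 were 0.05, 0.33, 0.07 and 0.36 at 4/5 somites. They were 0.16, 0.44, 0.21 and 0.38 at 7/8 somites. All 8 arrays were above 0, and at both stages the 2 arrays with Cy5 on the null pool lay above the 2 with Cy3. The mean over both stages was 0.25 (SE 0.09, limma adjusted p = 0.0845). Nrarp passed the limma test in 3 of 20 alternative settings, with slide as a block (0.25, adjusted p = 0.0270), with Cy5 on the null pool alone (0.38, adjusted p = 0.0311) and without array 1 of 4/5 somites (0.28, adjusted p = 0.0466), and read 0.12 with Cy3 on the null pool alone. The setting with slide as a block counts array pairs of the same pools as separate values, so its p rests partly on technical repeats.

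Mesp1 encodes a bHLH transcription factor of nascent mesoderm, and its probes on chromosome 7, at 86937140 to 86937199 and at 86937337 to 86937396, gave like values. Probe 1 read 0.55, 0.94, 0.66 and 0.95 on arrays 1 to 4 at 4/5 somites. It read 0.91, 1.01, 1.09 and 0.97 at 7/8 somites. Every array was above 0 and the stages overlapped. The means were 0.78 ± 0.20 at 4/5 and 0.995 ± 0.077 (SD of 4 arrays) at 7/8 somites, that is 1.71-fold and 1.99-fold. Over both stages probe 1 rose by 0.89 (SE 0.09, limma adjusted p = 8.23e-06).

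Mesp1 probe 2 read 0.88, 0.62, 0.66 and 0.51 on arrays 1 to 4 at 4/5 somites. It read 0.78, 0.86, 0.87 and 0.66 at 7/8 somites. At 4/5 somites the dyes moved the probes in opposite ways, with means of 0.61 (Cy3 on the null pool) and 0.95 (Cy5) for probe 1, against 0.77 and 0.57 for probe 2. Over both stages probe 2 rose by 0.73 (SE 0.09, limma adjusted p = 3.69e-05). Both probes kept the call in all alternative settings in which they were tested, 20 for probe 1 (0.80 to 0.99, adjusted p at most 0.0257) and 19 for probe 2 (0.66 to 0.82, adjusted p at most 0.0275).

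Mesp2 encodes the bHLH factor that sets the segment boundary. It read 0.35, 0.42, 0.34 and 0.31 on arrays 1 to 4 at 4/5 somites. It read 0.43, 0.24, 0.12 and 0.26 at 7/8 somites. All 8 arrays were above 0 and the stages overlapped. Over both stages Mesp2 rose by 0.31, 1.24-fold (SE 0.09, limma adjusted p = 0.0314), with 0.36 ± 0.05 at 4/5 and 0.26 ± 0.13 (SD of 4 arrays) at 7/8 somites. The call was lost in 13 of 20 alternative settings (adjusted p up to 0.151), among them leaving out arrays 2 (0.0830), 3 (0.0513) or 4 (0.0670) of 4/5 somites or arrays 1 (0.0840), 2 (0.0800) or 4 (0.0801) of 7/8 somites. The ratio of Mesp2 stayed between 0.22 and 0.56, the highest being that of the scanner's own log ratio. Hes7 likewise read -0.57 with the scanner's ratio, against -0.23 in the main setting. An offset of 50 was added to both channels in the main setting, which draws ratios of dim probes toward 0. Its part in the sizes given for Mesp2 and Hes7 was not tested.

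Within single stages, these genes were judged by size, with no p. A call needed at least 2-fold and the same sign on all 4 arrays, which 0.292% of all kept probes reached at 4/5 somites and 0.415% at 7/8 somites. Of the 11 kept probes, 0 reached it at either stage, with Mesp1 probe 1 at 7/8 somites the nearest (0.995 against a cut of 1). Over 12 alternative settings that value ran from 0.89 to 1.13. It passed the cut within slide 2, at 1.03, so the count of 0 depends on the setting. Signs alone were more even across arrays. At 4/5 somites 10 of the 11 probes had the same sign on all 4 arrays, against 45% of all kept probes, with 6 above 0 (21.9% of all) and 4 below 0 (23%). At 7/8 somites 8 of the 11 did, against 41.3% of all, with 7 above 0 (21.8%) and 1 below 0 (19.5%). Dll3 was the probe below 0 at 7/8 somites, and Hes5, Hes7 and Lfng joined it at 4/5 somites.

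The ratios were next set against each other between the stages. None of the 11 probes had stage means at least 2-fold apart without overlap, which 0.0639% of kept probes had. At any size, 4 probes had all arrays of 7/8 somites above all arrays of 4/5 somites (Dll1, Dll3, Notch1 probe 1 and Hes5) and 0 the opposite, against 10.3% and 8% of kept probes, 18.3% in all. The differences, 7/8 minus 4/5 somites, were 0.34 for Dll3, 0.29 for Hes5, 0.18 for Dll1 and 0.15 for Notch1 probe 1, on the log2 scale. Dll1 and Notch1 probe 1 are averaged over 10 printed spots per array, so small differences separate more easily. Notch1 probe 2, printed in 1 spot, overlapped between stages with a difference of 0.06. The same limit holds for the counts of like signs above and of level separations below. Those of Mesp1 were 0.22 and 0.12 and that of Mesp2 was -0.09, each with overlap.

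**Figure D2:**
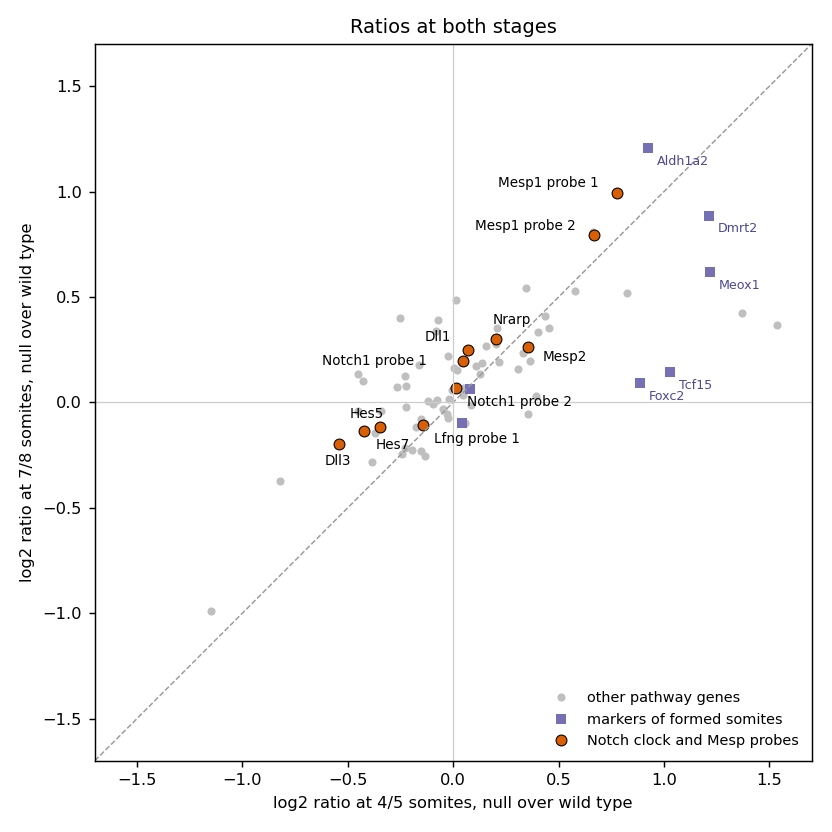
Mean log2 ratio of null over wild type at 4/5 somites (horizontal axis) and at 7/8 somites (vertical axis), each the mean of 4 arrays. Orange points are the 11 kept probes of the Notch clock and Mesp genes, purple squares the 7 kept markers of formed somites, grey points other pathway genes, and the dashed line marks equal ratios. Mesp1 lies near the dashed line at 0.67 to 0.995. Of the markers of formed somites, Tcf15 and Foxc2 lie far below the line and Meox1 and Dmrt2 less far. Pax7 and Uncx lie near the line and Aldh1a2 above it.

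Levels of each probe were then followed within a genotype, as log2 channel values after normalization across arrays, with a difference called by size where it was at least 2-fold without overlap. Mesp1 was the gene with the largest difference between the stages and the only one lower at 7/8 somites in both genotypes. On probe 1 the null pool averaged 10.56 ± 0.09 at 4/5 and 9.60 ± 0.03 (SD of 4 arrays) at 7/8 somites, and the wild type pool averaged 9.78 ± 0.17 and 8.60 ± 0.11. The level at 7/8 somites was thus lower by 1.95-fold in null (-0.96 on the log2 scale) and 2.27-fold in wild type (-1.18), without overlap in either genotype. Probe 2 gave -0.81 in null and -0.94 in wild type. The null pool was above the wild type pool at each stage without overlap on both probes. The null pool at 7/8 somites (9.56 to 9.63 on probe 1) overlapped the wild type pool at 4/5 somites (9.58 to 9.98).

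Hes5 had the largest gain between the stages. Its null pool averaged 9.82 ± 0.15 at 4/5 and 10.69 ± 0.11 at 7/8 somites, and its wild type pool 10.25 ± 0.18 and 10.83 ± 0.09. The level was higher at 7/8 somites by 0.87 in null and 0.58 in wild type, without overlap, and the genotypes overlapped at 7/8 somites but not at 4/5. Dll3 averaged 11.04 ± 0.14 and 11.42 ± 0.15 in the null pools, against 11.58 ± 0.11 and 11.61 ± 0.07 in the wild type pools, at 4/5 and 7/8 somites in that order. The null level of Dll3 was thus higher at 7/8 somites by 0.38 without overlap, whereas the wild type level differed by 0.04 with overlap. Hes7 had the same form, with a difference of 0.40 in null, without overlap, and 0.17 in wild type, with overlap.

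Mesp2 was higher at 7/8 somites by 0.27 in null and 0.36 in wild type, and Nrarp by 0.43 in null and 0.33 in wild type, all without overlap. For both genes the null pool lay above the wild type pool at each stage without overlap. The null pool of Mesp2 at 4/5 somites averaged 7.48 ± 0.03 and its wild type pool at 7/8 somites 7.48 ± 0.09. Dll1 was higher by 0.12 in null, without overlap, and lower by 0.06 in wild type, with overlap. Notch1 probe 1 was higher by 0.22 in null and by 0.07 in wild type, both without overlap. Lfng probe 1 was higher by 0.20 in null, without overlap, and by 0.17 in wild type, with overlap.

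Background shares for levels are over the 21814 kept probes with a value on every array, which include these 11. In null, 10 of the 11 separated the stages without overlap, against 20.5% of all, with 8 higher (11.3% of all) and 2 lower (9.13%) at 7/8 somites. In wild type 6 of the 11 did, against 18.7%, with 4 higher (8.55%) and 2 lower (10.1%). At 2-fold or more, the count was 0 in null and 1, Mesp1 probe 1, in wild type, against 0.234% and 0.188% of all. The median level difference between stages over all was 0.0076 in null and -0.0033 in wild type.

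**Figure D3:**
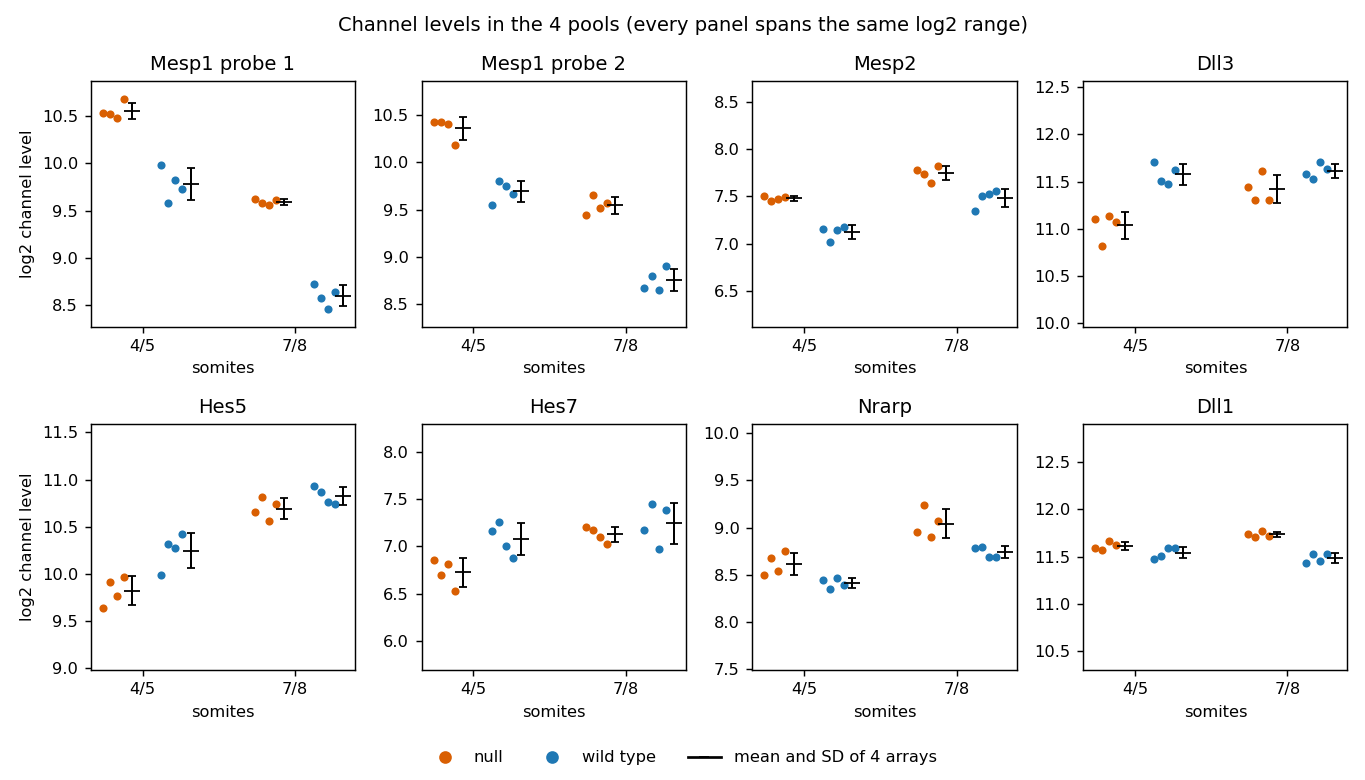
Log2 channel levels of 8 probes in the null pool (orange) and the wild type pool (blue) at 4/5 and 7/8 somites, with 1 point per array and black bars for the mean and SD of 4 arrays. Every panel spans the same log2 range, and levels of different probes are not comparable. Mesp1 is lower at 7/8 somites in both genotypes with null above wild type at each stage, and Dll3 is low in the null pool at 4/5 somites.

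Other parts of the Notch pathway gave few calls. Of the 6 kept genes among 7 other ligands and receptors, 0 passed the limma test (2 had an unadjusted p under 0.05), the largest values being those of Notch2 (0.24), Notch3 (-0.20), Dlk1 (0.16) and Jag1 (-0.12). Of the 16 kept genes among 21 that transduce or process the signal, 0 passed in limma (5 had an unadjusted p under 0.05). The largest there were the fucosyltransferase Pofut1 (-0.25), the ubiquitin ligase Mib1 (0.23), which activates ligands, the Notch inhibitor Numb (0.21) and the presenilin Psen2 (0.21). The share of all kept genes with an unadjusted p under 0.05 was not computed, so the counts at that threshold are not read as a result. Among other Hes and Hey genes and Notch targets, 1 of 13 kept genes rose and 0 fell. Hey2, a repressor of the Hey family, rose by 0.40 (SE 0.09, adjusted p = 0.00627), and Dtx4 (0.28), Dtx1 (-0.26) and Hes1 (0.25) did not pass. Over all 15490 genes, taken by their brightest kept probe, 870 rose and 567 fell with a median ratio of -0.01, whereas the 9 clock and Mesp genes had 2 risen, 1 fallen and a median of 0.12.

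**Figure D4:**
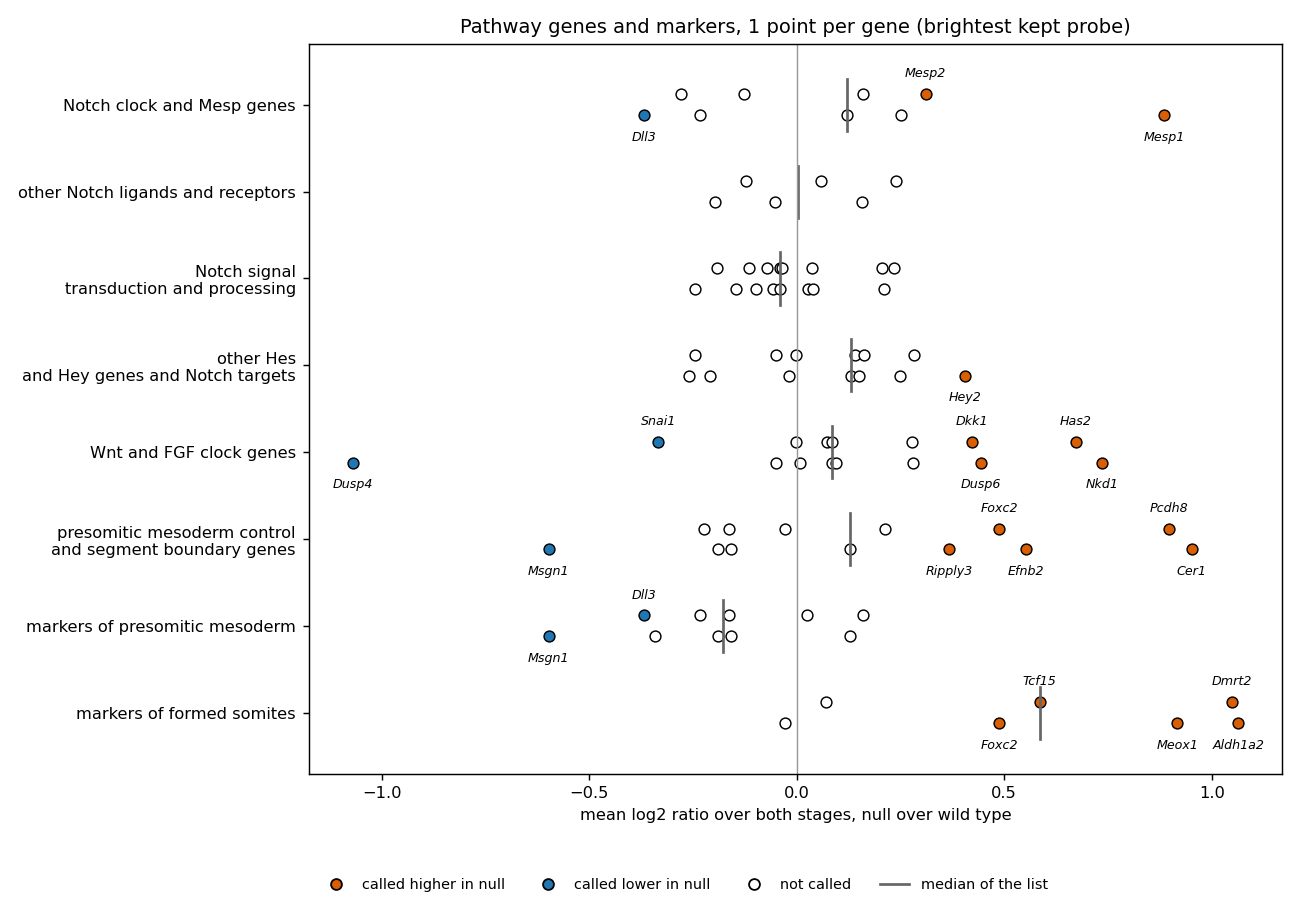
Mean log2 ratio over both stages, null over wild type (horizontal axis), with 1 point per gene by its brightest kept probe and 1 row per gene list. Orange points were called higher in null, blue points lower, open points were not called, and grey bars are list medians. The lists of other ligands and receptors and of signal transduction hold no called gene, and 5 of 7 markers of formed somites were called higher.

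Among Wnt and FGF genes that cycle with the clock, of 15 kept genes, 4 rose and 2 fell, with a median of 0.09. Of all 15490 genes, 870 rose and 567 fell. Dusp4, a phosphatase that acts on MAP kinases downstream of FGF, fell by 1.07 (SE 0.09, limma adjusted p = 9.39e-07). The Wnt inhibitor Nkd1 rose by 0.73 (SE 0.09, limma adjusted p = 3.72e-05), Has2, which makes hyaluronan, by 0.67, and Dusp6, another such phosphatase, by 0.44. The other calls, named after their values were seen, were Dkk1 (0.42) and Snai1 (-0.33).

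Among genes that control presomitic mesoderm or mark the segment boundary, 5 of 13 kept genes rose and 1 fell, against 870 and 567 of all 15490 genes. Cer1, a secreted antagonist made at the front of the presomitic mesoderm, read 1.54 at 4/5 and 0.37 at 7/8 somites (mean 0.95, SE 0.17, limma adjusted p = 0.00168). Pcdh8, a protocadherin downstream of Mesp2, read 1.37 and 0.42 (mean 0.90, SE 0.15, limma adjusted p = 0.000759). The ephrin Efnb2 rose by 0.55, at 0.58 and 0.53. Msgn1, a bHLH factor of the posterior presomitic mesoderm, fell by 0.60, at -0.82 and -0.37, and Tbx6 read -0.43 and 0.10 and did not pass (limma adjusted p = 0.438). Foxc2 (0.49) and Ripply3 (0.37), a relative of Ripply2, also rose. Tbx6, Foxc2 and Ripply3 were named after their values were seen. The level of Cer1 at 7/8 minus 4/5 somites was -1.89 in null and -0.72 in wild type, and that of Pcdh8 was -0.78 in null and 0.17 in wild type, on the log2 scale.

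Markers of other tissue moved beside these genes. Of 12 markers of formed somites 7 were kept, and 5 rose, namely Meox1 (0.92), Tcf15 (0.59), Foxc2 (0.49), Dmrt2 (1.05) and Aldh1a2 (1.06). Pax7 (0.07) and Uncx (-0.03) were kept and did not pass. The background for marker counts, here and below, is 870 risen and 567 fallen of all 15490 genes. The median of the 7 was 0.92 at 4/5 and 0.14 at 7/8 somites. At 4/5 somites the summed linear level of the 7 ran from 23150 to 26003 in null and 11987 to 13601 in wild type. At 7/8 somites it ran from 9928 to 11675 in null and 5693 to 6158 in wild type. Summed levels, here and below, give most weight to the brightest probes and do not measure the amount of a tissue. Meox2, Pax3, Pax1, Tbx18 and Myf5 were not kept. Of the 7 presomitic markers other than the clock genes all were kept, 0 rose and 1 fell, and their summed level ran from 19672 to 21026 in null and 25017 to 28321 in wild type at 4/5 somites, and from 24194 to 25876 and 21361 to 25094 at 7/8 somites. Tbx6, Msgn1 and T, which define the posterior presomitic mesoderm and primitive streak, were well above background on all 4 arrays of every pool, as were Meox1 and Tcf15 of the formed somites. The part of these tissues in the ratios of Mesp1, Mesp2, Dll3, Hes5 and Hes7 was not tested.

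The remaining markers stood for other tissues near the dissected piece. Visceral endoderm had 3 of 7 markers higher and 0 lower, and their summed level ran from 23288 to 25181 in null and 17393 to 19075 in wild type at 4/5 somites, and from 12156 to 13493 and 11926 to 12398 at 7/8 somites. Endothelium had 0 of 6 higher and 3 lower, with summed levels from 2746 to 3110 in null and 3689 to 3771 in wild type at 4/5 somites, and from 2831 to 3427 and 4945 to 6273 at 7/8 somites, and Pecam1 was not kept. Gut endoderm and notochord had 2 higher and 1 lower of 6. Neural plate markers other than Hes5, which that tissue also expresses, had 1 of 5 higher and 0 lower, with Sox3, Irx3 and Olig2 not kept. Their summed level ran from 1112 to 1255 in null and 991 to 1075 in wild type at 4/5 somites, and from 1088 to 1512 and 1052 to 1310 at 7/8 somites. Lateral plate and allantois had 0 higher and 1 of 6 lower, and primitive blood 0 higher and 1 of 5 lower. Their part in the ratios above was not tested.

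The genes whose pattern over the 8 arrays was closest to that of Mesp1 probe 1, by Euclidean distance between log2 ratios over all kept genes, were Vil1, Irx2, Zic1, Tcerg1l and Scube1, at distances from 0.29 to 0.32. Their stage means lay between 0.70 and 0.81 at 4/5 somites and between 0.87 and 0.95 at 7/8 somites. Closest to Hes7 were Atg4d, Sapcd2, Prelid1, Mapk3 and Mboat7, at distances from 0.15 to 0.25, with stage means between -0.36 and -0.29 and between -0.15 and -0.07. The 8 arrays share 4 pools and the dye order, so these distances only describe the arrays.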

How the data were processed

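Messenger RNA of 4 pools was measured on 8 Agilent arrays. The deposited scanner files hold spot and local background intensity values with no normalization, per the file headers. Per the file headers, the scanner's own ratio is given as log10, with Cy5 on top, and the authors' deposited series matrix holds the same log10 ratio turned to null over wild type (equal at 45018 of 45018 spots on each array, tolerance 1e-04). Agilent Feature Extraction 9.5.3 is named in the submitters' processing notes, and 10.5.1.1 in the file header.

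Directions were taken from the genotype given for each channel. In limma 3.58.1 (R 4.3.3), spots with an uneven local background (58 on array 1 of 4/5 somites, 0 to 38 on the others) received the array's median background. Then came normexp (offset 50) and loess within each array, with controls at weight 0. Outlier spots (0.341%) were left out, 0 spots were saturated, and spots of a probe were averaged. Probes well above background in 1 genotype on at least 3 of 4 arrays of a stage were kept. Arrays of the same 2 pools are 1 replicate, so lmFit and eBayes ran on 2 values per probe (1 residual and 14.9 prior degrees of freedom), two-sided, and p-values reflect how far the 2 stages' pools differ and rest mainly on a spread shared across probes. Channel levels are log2 values after Aquantile. The number of pools, 4, limits the precision more than that of arrays. The test was checked on simulated data. Lists take the brightest kept probe of a gene. Symbols came through accessions in the RefSeq table of GRCm38.p6 or, failing that, from the files.

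The genes and lists were chosen with earlier results of these data known. Named genes are all members, up to 4 per list with the largest mean ratio, and the 5 nearest to Mesp1 and to Hes7. Other genes (Tbx6, Foxc2, Ripply3, Dkk1, Snai1 and markers beyond the first 4 of a list) were named after their values were seen. Alternatives changed background, normalization, filter, probe choice, slide, dye order and arrays left out.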

Additional observations from a re-analysis of the deposited data

Results flagged for a closer look

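In 2 of the 72 groups of 4 arrays examined for these probes (ratios and channel levels), 1 array stood far from the other 3, and chance alone gives this in about 1 group of 20. Mesp1 probe 2 had a null level of 10.18 on array 4 of 4/5 somites, against 10.41 to 10.43 on the other 3 arrays. Without that array the log2 ratio of Mesp1 probe 2 over both stages was 0.76, against 0.73 with it. Notch1 probe 1 had a null level of 7.53 on array 4 of 4/5 somites, against 7.58 to 7.59 on the other 3. The same array gave both values.

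Dlk1, a ligand-like gene of the list of other ligands and receptors, read below 0 on every array of 4/5 somites and above 0 on every array of 7/8 somites, with means of -0.07 and 0.39. The difference of 0.46 was not tested, since each stage has 1 pool per genotype.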

How the results depend on the processing

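Mesp1 kept its call on both probes in every setting in which it was tested, and Dll1, Notch1 and Lfng were not called in any. The direction over both stages was the same in all settings for the 11 kept probes, apart from Notch1 probe 2. The number of probes called over both stages (1845) was 345 with no background correction, 812 with uneven local backgrounds kept, 765 with median centring in place of loess and 664 with no filter. It was 3110 with slide as a block, which counts array pairs of the same pools as separate values. Of the called probes 58.6% were higher in null, and 78.3% with median centring. Leaving out 1 array gave 942 to 2168 calls, with 942 and 1062 without arrays 2 and 4 of 4/5 somites and 964 and 1090 without arrays 2 and 4 of 7/8 somites. The same step gave 1 to 3 clock and Mesp genes higher and 0 to 2 lower, 0 to 1 other Hes and Hey genes lower, 3 to 5 Wnt and FGF genes higher and 1 to 2 lower, 3 to 5 presomitic and boundary genes higher, 57 to 70 probes at 2-fold at 4/5 somites, 87 to 94 at 7/8 somites and 14 to 20 that differed 2-fold between stages (64, 91 and 14 with all arrays).

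The 2 higher and 1 lower clock and Mesp genes became 1 higher and 0 lower with no background correction, with uneven backgrounds kept, with median centring, with no filter and with Cy3 on the null pool alone. They became 1 higher and 2 lower within slide 2, 2 lower with the stricter filter and with Cy5 alone, and 3 higher and 0 lower with slide as a block, where Nrarp was added and Dll3 lost. With Cy5 alone the 2 higher genes were Mesp1 and Nrarp (limma adjusted p = 0.0311), since Mesp2 lost its call (limma adjusted p = 0.0674). With the scanner's log ratio they were 2 higher and 1 lower, the lower one being Hes7 (adjusted p = 0.0150) and not Dll3 (adjusted p = 0.111). Of the presomitic and boundary genes (5 higher, 1 lower), 1 higher and 0 lower were counted with no filter and with no background correction, 2 higher with uneven backgrounds kept, 3 higher and 0 lower with median centring, 2 lower with the scanner's log ratio, and 2 higher and 2 lower with Cy3 alone and with slide as a block. Of the Wnt and FGF genes (4 higher, 2 lower), the count was 2 higher and 1 lower with no background correction, and 1 lower with uneven backgrounds kept, median centring, no filter, Cy3 alone and Cy5 alone. Of other Hes and Hey genes (1 higher, 0 lower), it was 0 higher with no background correction, 2 higher and 1 lower with the scanner's log ratio, 2 higher with the stricter filter and with the brightest probe per gene, 2 higher and 2 lower with slide as a block, 2 lower within slide 2 and 3 lower with Cy5 alone. Slide as a block also gave 1 higher ligand or receptor, and 3 higher and 1 lower gene of signal transduction. Probes at 2-fold numbered 33 at 4/5, 60 at 7/8 somites and 9 between stages with no background correction, 31 at 4/5 somites with uneven backgrounds kept, and 328, 354 and 135 with the scanner's log ratio. Those between stages numbered 32 with Cy3 alone. The cause was not tested.

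Null and wild type were compared within each array, in every setting, and slide was run as a block. By replicate number, no paired analysis was possible because the numbers of the 2 stages mark arrays of different pools. No value within a stage has a biological error, and dim probes such as the second Lfng probe lie near background.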
